A study of Mus musculus with 3 samples.

Results

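The 37 genes described here are immediate early genes (31 genes) and heat shock genes (6 genes), chosen by name from the 31053 genes listed in the data. They were measured in single cells of mouse dorsal root ganglia (DRGs), the ganglia that hold the cell bodies of sensory neurons and the glia, vessels and immune cells around them. The 3 groups were naïve, untreated mice, mice 7 days after spared nerve injury and mice 14 days after spared nerve injury, with the injury made in both hindlegs. According to the labels, all mice were male C57BL/6J wild type mice of 13 weeks, whereas the published methods name female mice of other ages and do not describe the mice of these libraries. Each group was 1 library that pooled the 8 L3 and L4 DRGs of 2 mice, taken after perfusion and dissociated with collagenase and dispase. With 1 library per condition there was no replicate and no test, and the injury, the mice, the dissociation of the tissue and the handling of each library cannot be told apart.

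Immediate early genes are genes that a cell transcribes within minutes of a stimulus without making new protein first. Many encode transcription factors, such as Fos and Junb, which form the dimer AP-1, and others encode proteins that end the response, such as the phosphatase Dusp1 and the mRNA decay factor Zfp36. Heat shock genes encode chaperones that keep proteins folded, and stress makes heat shock factors bind heat shock elements, which are inverted repeats of GAA, in their promoters. Some chaperones, such as Hspa8, are made in unstressed cells, while Hspa1a and Hspa1b are known for their strong induction by stress. In the DRG both groups are known to respond to injury of the axon, and both are also known to respond to enzymatic dissociation at warm temperature.

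After cells with under 500 detected genes or over 20% mitochondrial transcripts were left out, 9662 of 11937 barcodes remained, from 2682 to 3828 per library with medians of 3072 to 4199 UMIs (unique molecular identifiers, 1 for each captured mRNA molecule). Cells were assigned to classes by fixed marker genes, and 8 classes held at least 50 cells in each library: satellite glial cells (SGCs), myelinating and non-myelinating Schwann cells, neurons, endothelial cells, mural cells, fibroblasts and macrophages, each named here as SGC-like and so on. In each class the summed level of its own markers in the median cell was above that of each other marker list, and 883 cells (9.14%) stayed unassigned. Levels are UMIs of a gene per 1000000 UMIs of a class (CPM), given in the order naïve, 7 days and 14 days, and log2 ratios compare an injured library with the naïve library. Ranges in parentheses are 95% intervals, exact Poisson for CPM, exact conditional binomial for ratios and exact Clopper-Pearson for shares, which cover counting error only and not differences between mice or libraries. The naïve library shared 1 cell barcode with the 7-day library and 6 with the 14-day library, and the injured libraries shared 2.

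Promoters of 4 members are printed to show where motifs of the heat shock and of the cyclic AMP response lie in them. Windows of the 250 bases before the transcription start were found for 28 of the 37 members in RefSeq (GRCm38.p6), and none was used for Fosl1, Egr1, Klf10, Ier2, Nfkbiz, Arc, Cyr61, Hspa8 and Hsp90aa1. Capitals mark the heat shock element GAANNTTC in the first 3 sequences and the cyclic AMP response element TGACGT in Fos. Hspa1a (chr17:34972157-34972406, reverse strand) and Hspa1b (chr17:34959239-34959488, reverse strand) are neighbours whose windows differ at 3 bases and are 98.8% identical, each with a match 104 bases before the start. Hspb1 (chr5:135887669-135887918, forward strand) holds 2 matches, 117 and 97 bases before the start, and Fos (chr12:85473640-85473889, forward strand) holds TGACGT 66 bases before it.
Hspa1a: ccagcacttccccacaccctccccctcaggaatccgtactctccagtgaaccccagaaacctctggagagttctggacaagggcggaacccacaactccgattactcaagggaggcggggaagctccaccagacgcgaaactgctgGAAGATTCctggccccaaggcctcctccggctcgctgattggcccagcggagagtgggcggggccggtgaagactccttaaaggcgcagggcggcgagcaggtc
Hspa1b: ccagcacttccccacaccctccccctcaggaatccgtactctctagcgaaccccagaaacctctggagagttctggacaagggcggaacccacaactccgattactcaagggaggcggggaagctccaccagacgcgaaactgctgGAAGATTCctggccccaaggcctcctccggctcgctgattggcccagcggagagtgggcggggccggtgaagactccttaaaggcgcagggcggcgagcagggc
Hspb1: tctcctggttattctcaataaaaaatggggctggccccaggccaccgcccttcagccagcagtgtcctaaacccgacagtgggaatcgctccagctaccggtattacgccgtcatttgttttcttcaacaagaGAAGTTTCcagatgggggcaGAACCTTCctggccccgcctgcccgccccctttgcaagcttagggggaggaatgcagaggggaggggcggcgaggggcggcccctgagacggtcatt
Fos: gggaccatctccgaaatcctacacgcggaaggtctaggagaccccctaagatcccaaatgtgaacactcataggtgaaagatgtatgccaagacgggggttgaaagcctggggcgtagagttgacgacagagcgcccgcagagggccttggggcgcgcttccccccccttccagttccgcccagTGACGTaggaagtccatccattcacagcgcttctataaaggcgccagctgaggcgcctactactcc

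GAANNTTC was present in 3 of the 4 heat shock members with a window (Hspa1a, Hspa1b and Hspb1, but not Dnajb1) and in 1 of 24 immediate early members (Fosl2), against 6.69% of 32851 windows of all genes. The other order of the repeat, TTCNNGAA, was in none of the members and in 7.17% of all windows. TGACGT, searched on both strands, was in 6 of the 24 immediate early members (Btg1, Btg2, Dusp1, Dusp5, Fos and Nr4a3) against 6.47% of all windows, and the CArG box, the site of serum response factor, was in 2 (Dusp5 and Zfp36) against 1.47%. These matches describe letters in short windows and say nothing of binding. Members were counted by gene and the background by window, and the windows of Hspa1a and Hspa1b are nearly the same.

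Over all kept cells, the 6 heat shock genes summed to 2787, 2085 and 2091 CPM and the 31 immediate early genes to 1861, 2118 and 2088 CPM. Within classes, the heat shock sum was lower in both injured libraries than in the naïve library in 7 of 8 classes and was slightly higher in neuron-like cells. The immediate early sum showed no such common direction, with log2 ratios over the naïve library between -0.12 and 0.27 at 7 days and between -0.035 and 0.35 at 14 days. Its largest parts were Jund (25264 UMIs over the 8 classes), Btg1 (17616), Zfp36l1 (16293) and Rhob (10972), none past 2-fold in any class. Fos held 7313 UMIs and Egr1 6371, so the sum gives such members less weight. Heat shock transcripts were highest in naïve endothelial-like cells, at 3955, 2206 and 1709 CPM, with log2 ratios of -0.84 (-0.90 to -0.78) and -1.21 (-1.26 to -1.16). Macrophage-like cells went from 3153 CPM in the naïve library to 1804 CPM at 7 days and 1218 CPM at 14 days, the lowest log2 ratio of all classes at 14 days, -1.37 (-1.51 to -1.23). In non-myelinating Schwann-like cells the sum was 3326, 1624 and 1400.0 CPM, with log2 ratios of -1.03 (-1.19 to -0.88) and -1.25 (-1.38 to -1.12). In all 7 classes with a lower sum, the counting intervals of the naïve library did not overlap those of the injured libraries.

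Mural-like cells, the pericytes and smooth muscle of the vessel wall, had heat shock sums of 3565, 1985 and 1807 CPM. Fibroblast-like cells had 2596, 1462 and 1225 CPM, and SGC-like cells, which wrap the neuronal cell bodies, had 2506, 1666 and 1459 CPM. The smallest differences outside neurons at 14 days were those of myelinating Schwann-like cells, at 2583, 1621 and 1688 CPM, with log2 ratios of -0.67 (-0.72 to -0.63) and -0.61 (-0.65 to -0.57). These cells, together with neuron-like cells, were the ones whose sum was not lower at 14 days than at 7 days (0.058 (0.015 to 0.10) and 0.066 (0.041 to 0.092) on the log2 scale for 14 days over 7 days, a comparison chosen after seeing the data). The other 6 classes were lower again at 14 days, from -0.14 in mural-like to -0.57 in macrophage-like cells.

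**Figure D1:**
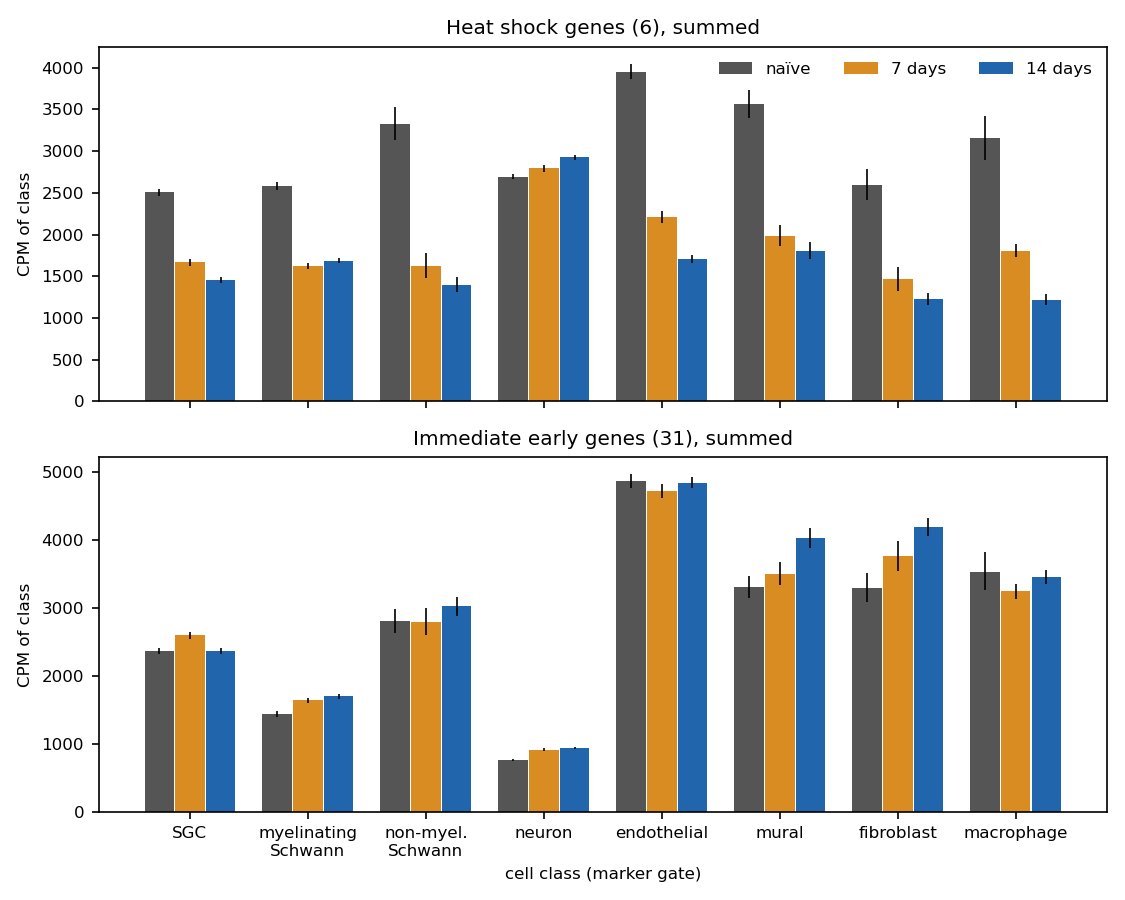
Summed CPM (vertical axis) of the heat shock genes and of the immediate early genes in each cell class (horizontal axis), 1 bar per library with its 95% Poisson interval for counting error. The heat shock bars of the naïve library stand above both injured libraries in 7 classes, for example 3955 against 2206 and 1709 CPM in endothelial-like cells, while in neuron-like cells they are slightly below them (2696, 2796 and 2927 CPM).

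In most classes depth and mitochondrial share were higher where the heat shock sum was lower. The median naïve cell held fewer UMIs than the median 7-day cell in the 7 classes other than neurons, for example 5524 against 7272 in SGC-like and 2220.0 against 4424 in macrophage-like cells. At 14 days this held in 6 of the 7, and mural-like cells had 3558 against 3518 UMIs. Cells of at least 2000 UMIs were also scaled to 2000 UMIs each (thinned sums). The log2 ratio of the heat shock sum in SGC-like cells was then -0.64 and -0.84 for 7 and 14 days (unthinned -0.59 and -0.78). No UMIs were drawn, and these cells were only given equal weight, so this cannot show whether depth shaped the ratio. The mitochondrial share was above that of the naïve library in 6 of these 7 classes at 7 days, the exception being fibroblast-like cells (10.4% against 9.29%), and in 7 of 7 at 14 days. Mitochondrial transcripts took 13.2%, 14.8% and 15.1% of the UMIs of SGC-like cells and 5.24%, 6.03% and 6.39% of those of endothelial-like cells, and their part in the result was not tested beyond a stricter filter, which gave -0.70 for SGC-like cells at 14 days. That filter allowed at most 10% mitochondrial transcripts, less than the share of SGC-like cells in each library, so it kept only part of this class. The naïve library also held most cells of a cluster led by the interferon-response genes Cxcl10 and Ifit3b, with 163, 39 and 32 cells. In that cluster the heat shock sum was 2904, 1676 and 1427 CPM, and the part of these cells in the other values was not tested.

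A member was counted in a class where its 3 libraries held at least 50 of its UMIs, which left 224 of 296 member and class combinations, 15 members in all 8 classes, 20 in some classes, and Fosl1 and Dusp2 in none. Of 44 such combinations of heat shock genes, 14 were at least 2-fold lower at 7 days and 19 at 14 days (on CPM + 1), and 0 were higher at either time. Among all genes of the 8 classes counted in the same way, 1.47% of combinations were 2-fold lower at 7 days (0.337% to 4.37% in single classes) and 1.22% at 14 days (0.443% to 3.64%). Of 180 combinations of immediate early genes, 16 were 2-fold higher and 6 lower at 7 days, and 28 were higher and 5 lower at 14 days. With cells thinned to 2000 UMIs these counts were 9 and 3 at 7 days and 13 and 1 at 14 days, and with a pseudocount of 10 CPM 10 and 17 were higher. Thinning left fewer UMIs, so that the minimum of UMIs was harder to reach. For all genes the shares that were 2-fold higher came to 2.3% at 7 days (0.345% to 9.08% in single classes) and 2.85% at 14 days (0.646% to 10.9%). With a 1.5-fold limit, 29 and 30 heat shock combinations were lower (all genes 5.97% and 5.62%), and 38 and 50 immediate early combinations were higher (all genes 7.39% and 8.5%). Combinations of 1 gene in several classes are not independent of each other.

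**Figure D2:**
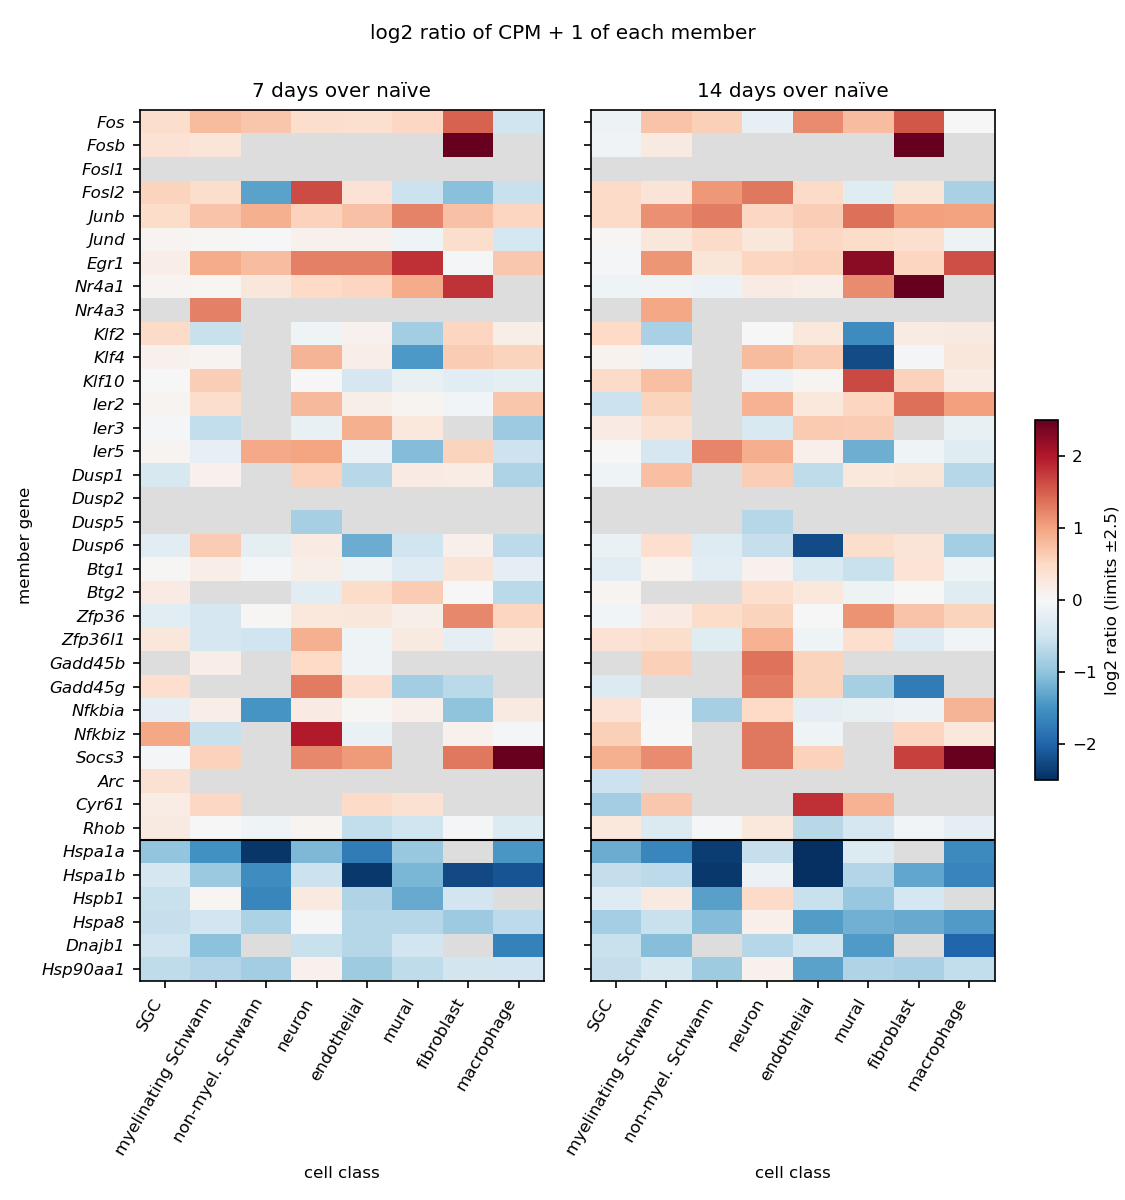
Log2 ratio of CPM + 1 (colour, limited to ±2.5) of each of the 37 members (rows) in each cell class (columns) at 7 days and at 14 days over the naïve library, with combinations of under 50 UMIs left grey. The heat shock rows are lower in most columns outside neurons, while Junb is higher in each of the 8 columns at both times.

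Hspa1a and Hspa1b encode the inducible chaperone HSP70 and were lower in both injured libraries wherever they were counted, Hspa1b in 8 of 8 classes and Hspa1a in 7 of 7. In endothelial-like cells Hspa1b was at 282, 52.2 and 37.6 CPM, 5.40-fold and 7.49-fold lower than in the naïve library. There, Hspa1a was at 108, 31.4 and 12.4 CPM, with log2 ratios of -1.78 (-2.24 to -1.33) and -3.11 (-3.68 to -2.59). Both genes stood lowest at 14 days in this class. Non-myelinating Schwann-like cells had Hspa1a at 308, 56.2 and 58.9 CPM and Hspb1, a small heat shock protein, at 273, 87.9 and 107 CPM. Hspa1b was at 351, 119 and 65.2 CPM in the same cells, so 3 members were at least 2-fold lower in this class at both times. In macrophage-like cells Hspa1b was at 400.4, 89 and 127 CPM, the naïve value resting on 72 UMIs (313 to 504 CPM).

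In myelinating Schwann-like cells Hspa1a was at 213, 73.9 and 67.9 CPM and Hspa1b at 459, 241 and 289 CPM. Hspa1a was past 2-fold in this class at both times (log2 ratios -1.53 (-1.72 to -1.34) and -1.65 (-1.82 to -1.48)), Hspa1b at neither (-0.93 (-1.04 to -0.82) and -0.67 (-0.76 to -0.57)). SGC-like cells had the same order with smaller differences. Hspa1a was there at 164, 82.4 and 69.1 CPM, and it was the 1 member of this class past 2-fold, at 14 days (-1.25 (-1.44 to -1.06)). Hspa1b in SGC-like cells was at 305, 227 and 201 CPM. In mural-like cells Hspa1b went from 272 to 123 and 162 CPM, and Hspa1a from 133 to 68.2 and 104 CPM, so that both were nearer the naïve level at 14 days than at 7 days. Fibroblast-like cells held 24, 5 and 30 UMIs of Hspa1b, or 84, 16.8 and 33.5 CPM. The coding parts of Hspa1a and Hspa1b are nearly the same, so reads from there may not tell the genes apart. The last 300 bases of their transcripts are only 50.1% identical, so reads from the 3′ ends can. How many reads came from either part was not measured, and the sum of both genes is the safer value. That sum was lower in 8 of 8 classes at both times, with log2 ratios from -0.60 in SGC-like to -2.22 in endothelial-like cells at 7 days, and from -0.26 in neuron-like to -2.96 in endothelial-like cells at 14 days.

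Hspa8, the constitutive HSP70, gave the largest share of the UMIs of the sum outside neurons and was ordered naïve, 7 days, 14 days from high to low in 7 of 8 classes. Macrophage-like cells had it at 2247, 1433 and 837 CPM, with a log2 ratio of -1.42 (-1.59 to -1.25) at 14 days, and endothelial-like cells at 2128, 1292 and 813 CPM (-1.39 (-1.46 to -1.31)). The difference was smaller in myelinating Schwann-like cells, at 1305, 942 and 885 CPM. Hspa8 was past 2-fold at 14 days in non-myelinating Schwann-like (-1.09), endothelial-like, mural-like (-1.19), fibroblast-like (-1.25) and macrophage-like cells, and at 7 days in none of the 8. Without Hspa8, the sum of the other 5 genes was lower in the same 7 classes, at log2 ratios from -0.61 to -1.32 at 7 days and from -0.67 to -1.43 at 14 days.

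Dnajb1, a co-chaperone of HSP70, was lower in the 6 classes in which it was counted, most in macrophage-like cells, at 89, 27 and 21.6 CPM (16, 30 and 26 UMIs). In myelinating Schwann-like cells it was at 51.3, 24.9 and 24.1 CPM, past 2-fold at both times, and in mural-like cells at 65.4, 46.8 and 23.7 CPM, past 2-fold at 14 days. Hsp90aa1, the inducible HSP90, was lower in 7 of 8 classes and past 2-fold in endothelial-like cells at 14 days, where it was at 473, 255 and 187 CPM. The level of Hspb1 differed widely between classes. It was highest in naïve endothelial-like cells (900.0, 537 and 613 CPM) and mural-like cells (846, 351 and 439 CPM), with log2 ratios of -1.27 (-1.53 to -1.01) and -0.95 (-1.16 to -0.73) in the latter, whereas myelinating Schwann-like cells had 9.28, 9.68 and 11 CPM, within overlapping intervals.

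**Figure D3:**
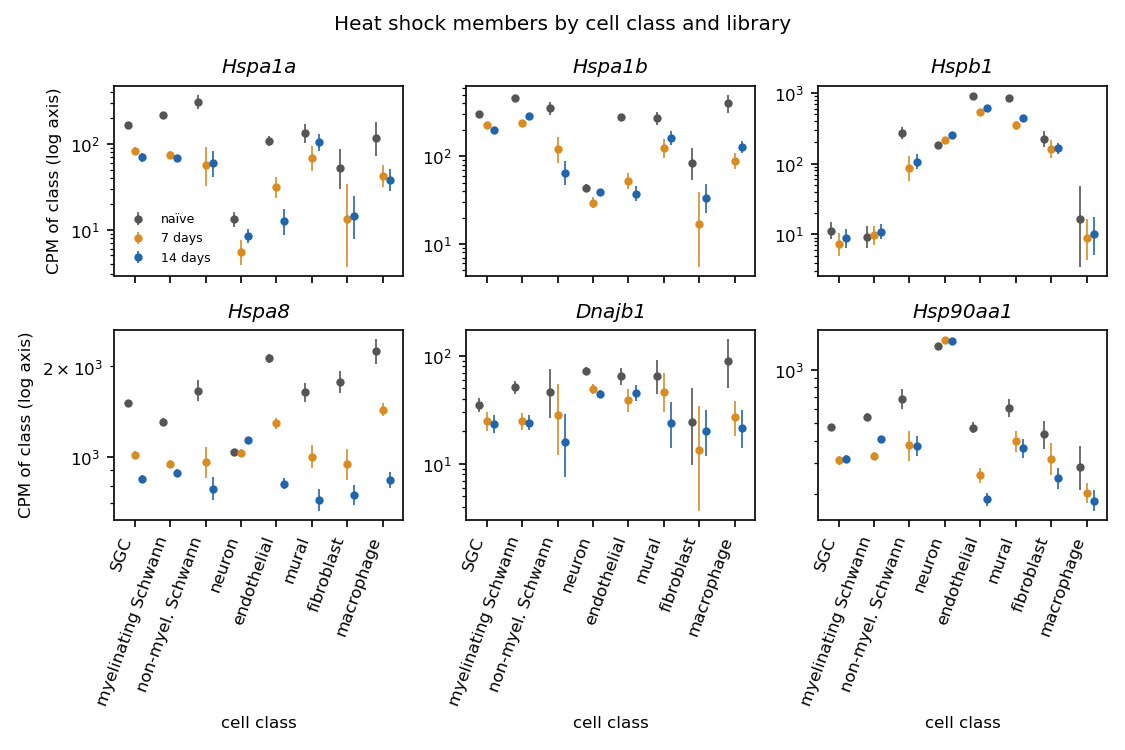
CPM (vertical axis, log scale with its own range in each panel) of the 6 heat shock genes in each cell class (horizontal axis), 1 point per library with its 95% Poisson interval. Hspa1b of the naïve library is the highest point in each class, while Hspb1, Hsp90aa1 and Hspa8 of neuron-like cells are not.

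Neuron-like cells stood apart in the class sum. Their heat shock sum was 2696, 2796 and 2927 CPM, with log2 ratios of 0.053 (0.025 to 0.081) and 0.12 (0.10 to 0.14), against an all-gene median of 0.026 and 0.079 in this class. Here, Hsp90aa1 was at 1351, 1464 and 1446 CPM, Hspa8 at 1034, 1032 and 1136 CPM and Hspb1 at 182, 216 and 254 CPM. Hspb1 was higher at both times, with log2 ratios of 0.25 (0.14 to 0.35) and 0.48 (0.39 to 0.57). Hspa1a, Hspa1b and Dnajb1 were lower in neuron-like cells too, while Hspb1 and Hsp90aa1 were not. Hspa1a was at 13.2, 5.46 and 8.52 CPM and 2-fold lower at 7 days (-1.27 (-1.85 to -0.72), 0.891% of all genes), Dnajb1 was at 73.1, 49.6 and 44.5 CPM, and Hspa1b was at 43.1, 29.6 and 38.6 CPM. The interval of the Hspa1b ratio included 0 at 14 days (-0.16 (-0.36 to 0.04)). Hsp90aa1 and Hspa8 held most of the UMIs of the sum in neuron-like cells. Hsp90aa1 was above the naïve level at both times, and Hspa8 was level at 7 days and higher at 14 days. In the 2 neuron clusters with at least 20 cells in each library, the heat shock ratios were -0.078 and -0.39 at 7 days. They were 0.25 and -0.14 at 14 days. The sum of 24 other chaperones was at -0.095 (-0.12 to -0.075) and -0.037 (-0.054 to -0.020) in neuron-like cells.

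The neuron-like cells of the 7-day library differed in depth from the others, with a median of 2263 UMIs per cell against 63909 in the naïve and 78419 in the 14-day library. A shallow cluster of 116 cells, at a median of 1282 UMIs, was left unnamed, with neuron markers scoring highest. It was led by Serpinb1a, Sprr1a and Asns, with Atf3 and Gadd45a among its 10 leading genes, and 113 of its cells came from the 7-day library. How many of its cells were in the neuron-like class was not counted. Deep cells dominate a sum of counts, so an alternative chosen after seeing the data kept neuron-like cells with at least 10000 UMIs (107, 57 and 119 cells). Among them the heat shock sum was 2695, 2740 and 2925 CPM and the immediate early sum 758, 909 and 938 CPM, close to the values of all neuron-like cells. In single cells, the median heat shock level was 2726, 3282 and 2838 CPM, highest at 7 days, when most neuron-like cells were shallow.

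Outside neurons, the lower heat shock level was seen across the range of cells rather than in a tail. In endothelial-like cells the median cell had 3898, 2109 and 1657 CPM, and the lower quartile of the naïve library (2704 CPM) lay above the upper quartile at 14 days (2161 CPM). The same held for mural-like cells, with 2326 against 2229.7 CPM. SGC-like cells had medians of 2435, 1634 and 1453 CPM. When cells were clustered without the 37 members and 62 other genes of the same families, 20 of 32 clusters had at least 20 cells in each library. Of these, 18 lay outside the neurons. The heat shock sum was lower in all 18 at 7 days and at 14 days. The 2 neuron clusters of that size were both lower at 7 days, and 1 was higher and 1 lower at 14 days. The immediate early sum was higher in 13 of the 18 at 7 days and in 12 at 14 days.

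**Figure D4:**
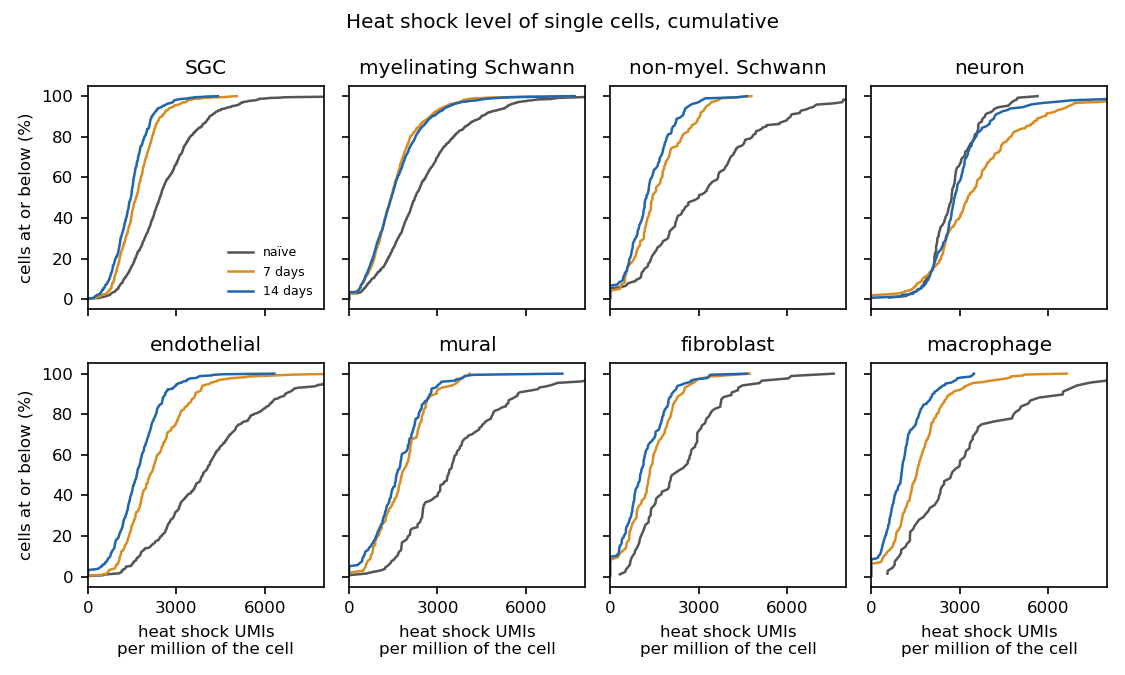
Cumulative share of cells (vertical axis) by the heat shock CPM of each cell (horizontal axis, cut off on the right), 1 line per library and 1 panel per cell class. The naïve line lies to the right of both injured lines in the classes other than neurons, with medians of 3898 against 2109 and 1657 CPM in endothelial-like cells.

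The share of cells with an Hspa1a UMI was 34.4%, 15.7% and 9.55% in endothelial-like cells (29.1% to 40.1% in the naïve and 6.63% to 13.2% in the 14-day library), although the naïve cells were the shallowest. Thinned to 2000 UMIs per cell, which left out 62, 21 and 33 cells, it was 17.9%, 6.02% and 1.61%. In myelinating Schwann-like cells the thinned shares were 29.1%, 10.4% and 9.60% (384, 98 and 151 cells left out, unthinned 34.2%, 18.4% and 16%). The order was another one in mural-like cells, with thinned shares of 17.7%, 13.8% and 20.8% (39, 13 and 20 cells left out, unthinned 27.5%, 26.5% and 32%). No class is known to lack these genes, so the share that free RNA gives could not be read from another class.

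Among the immediate early genes, the AP-1 subunits were the group most often above the naïve library, with a summed log2 ratio above 0 in 7 of 8 classes at 7 days and in 8 of 8 at 14 days. Jund held the most UMIs of this sum, 25264 against 7313 of Fos and 4199 of Junb. The group of Egr1, Nr4a1, Nr4a3, Klf and Ier genes came close. Its sum was below the naïve library only in macrophage-like cells at 7 days (-0.11) and SGC-like cells at 14 days (-0.062). Junb was higher in 8 of 8 classes at both times. It was at 47.5, 78.3 and 107 CPM in myelinating Schwann-like cells, with log2 ratios of 0.72 (0.46 to 0.99) and 1.17 (0.92 to 1.41), and at 38.8, 93.6 and 103 CPM in mural-like cells (1.27 (0.48 to 2.12) and 1.41 (0.67 to 2.21)). Macrophage-like cells had 83.4, 122 and 168 CPM, fibroblast-like cells 91, 151 and 187 CPM and non-myelinating Schwann-like cells 26.1, 49.2 and 65.2 CPM, each past 2-fold at 14 days. The differences were smaller in SGC-like cells, at 47.4, 65.5 and 66.2 CPM, and in endothelial-like cells, at 53, 88.3 and 81.3 CPM.

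Fos, the partner of Junb in AP-1, was higher in 7 of 8 classes at 7 days and in 5 of 8 at 14 days. Fibroblast-like cells had it at 91, 255 and 269 CPM, with log2 ratios of 1.49 (0.83 to 2.19) and 1.57 (0.98 to 2.21), and endothelial-like cells at 21.8, 29 and 50.7 CPM, past 2-fold at 14 days (1.22 (0.70 to 1.76)). In myelinating Schwann-like cells it was at 132, 230.4 and 217 CPM, under 2-fold at both times. SGC-like cells held the highest naïve level of Fos, 197 CPM, which was 269 CPM at 7 days and 182 CPM at 14 days. A Fos UMI was found in SGC-like cells at shares of 39%, 50.9% and 49.2%, and 23.1%, 29.6% and 24.6% after thinning to 2000 UMIs (35, 5 and 10 cells left out). In neuron-like cells Fos stayed low, at 9.29, 12.9 and 7.89 CPM. Among the other AP-1 genes, Fosb was at 7.00, 46.9 and 70.4 CPM in fibroblast-like cells, from 2, 14 and 63 UMIs, and Fosl2 was at 6.58, 22.6 and 18 CPM in neuron-like cells (1.78 (1.33 to 2.25) and 1.45 (1.02 to 1.90)). Jund was past 2-fold in no class. Fosl2 in non-myelinating Schwann-like cells was at 81.3, 31.6 and 173 CPM, 2-fold lower at 7 days and 2-fold higher at 14 days, but with classes taken from clusters the log2 ratio of CPM + 1 at 7 days was 0.053. The clusters named for this cell type were 2, 1 led by Scn7a and Rasgef1c with 135, 84 and 138 cells and 1 led by Tnc and Btc with 12, 5 and 52 cells, and this makeup differed between libraries. In the former alone the immediate early sum was at log2 ratios of 0.11 and -0.049, against -0.0015 and 0.11 in the class. In fibroblast-like cells Fosl2 was at 84, 40.2 and 104 CPM, 2-fold lower at 7 days on 12 UMIs.

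Egr1, a zinc finger factor, was higher in 7 of 8 classes at both times, most in mural-like cells, where it was at 73.6, 263 and 356 CPM with log2 ratios of 1.84 (1.30 to 2.41) and 2.27 (1.77 to 2.82). The share of mural-like cells with an Egr1 UMI was 10.7%, 33.3% and 38.3%, and 6.62%, 20.7% and 28.3% after thinning (39, 13 and 20 cells left out). Endothelial-like cells had 30.04, 73.5 and 45.1 CPM, past 2-fold at 7 days, and myelinating Schwann-like cells 35.5, 68.4 and 77.2 CPM, past 2-fold at 14 days. The orphan nuclear receptor Nr4a1 was at 53.2, 101 and 121 CPM in mural-like cells and at 7.00, 26.8 and 54.8 CPM in fibroblast-like cells, the latter from 2, 8 and 49 UMIs. Nr4a3 in myelinating Schwann-like cells was past 2-fold at 7 days from 7 and 27 UMIs. Ier2 was at 38.5, 36.9 and 102 CPM in fibroblast-like cells, past 2-fold at 14 days (1.40 (0.50 to 2.45)), and at 22.2, 36.8 and 46.6 CPM in macrophage-like cells, where the naïve value rests on 4 UMIs. SGC-like cells had Ier2 at 34.6, 36.2 and 23.7 CPM, lower at 14 days (-0.55 (-0.90 to -0.20)), and endothelial-like cells had 104, 115 and 125 CPM. Egr1 in macrophage-like cells was at 22.2, 35.9 and 69.9 CPM, also from 4 naïve UMIs, and Egr1 in fibroblast-like cells, the class with the highest level, was at 518, 503 and 754 CPM.

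Among the Krüppel-like factors, Klf2 and Klf4 were lower at both times and Klf10 was higher at 14 days in mural-like cells. Klf4 was at 65.4, 23.4 and 13.2 CPM (-1.48 (-2.58 to -0.49) and -2.31 (-3.50 to -1.25)) and Klf2 at 108, 58.5 and 35.6 CPM, with a log2 ratio of -1.61 (-2.33 to -0.91) at 14 days. Klf10 was at 24.5, 21.4 and 79.1 CPM there, past 2-fold higher at 14 days (1.69 (0.78 to 2.72)), and Ier5 at 71.5, 33.1 and 30.3 CPM, past 2-fold lower at both times. With doublets left out, too few immediate early combinations were 2-fold lower at 14 days for Klf4, Klf2 and Ier5 all to have stayed. Which of these mural-like calls depended on doublets was not examined gene by gene. Endothelial-like cells, in which Klf2 and Klf4 are known to respond to blood flow, had Klf2 at 670.1, 727 and 807 CPM and Klf4 at 335, 375 and 518 CPM, neither past 2-fold. Non-myelinating Schwann-like cells had Ier5 at 23.2, 45.7 and 55.7 CPM, past 2-fold higher at 14 days.

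Among the genes that damp signalling, Dusp6, a phosphatase of ERK, was at 136, 56.9 and 28 CPM in endothelial-like cells, with log2 ratios of -1.26 (-1.61 to -0.91) and -2.28 (-2.66 to -1.91). It was the 1 immediate early gene 2-fold lower in that class at each time, against 0.787% and 0.913% of all genes. Dusp1, which acts on p38 and JNK, was also lower there, at 123, 75.9 and 79.1 CPM (log2 ratios -0.70 (-1.02 to -0.38) and -0.63 (-0.91 to -0.36)), whereas in neuron-like cells it was higher, at 34.2, 51.3 and 52.6 CPM (0.58 (0.35 to 0.82) and 0.62 (0.42 to 0.82)). In SGC-like and mural-like cells Dusp1 stood at 20.6, 15.4 and 19.1 CPM and at 164, 189 and 195 CPM, with overlapping intervals. Zfp36, which speeds the decay of cytokine mRNAs, was at 85.9, 95.5 and 187 CPM in mural-like cells, past 2-fold at 14 days (1.13 (0.62 to 1.66)), and at 73.5, 171 and 121 CPM in fibroblast-like cells, past 2-fold at 7 days (1.22 (0.46 to 2.03)). Macrophage-like cells had 128, 186 and 189 CPM and SGC-like cells 30.9, 25.5 and 29.2 CPM. Gadd45g, a growth arrest gene, was lower in fibroblast-like cells at 14 days (69.98, 43.6 and 20.1 CPM). The remaining growth arrest and decay genes Btg1, Btg2 and Zfp36l1 were past 2-fold in no class.

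Socs3, which blocks signalling of the JAK and STAT pathway, was higher in 5 of 6 classes at 7 days and in 6 of 6 at 14 days. Naïve macrophage-like cells held 0 Socs3 UMIs, for which 3 counts set a limit of 16.7 CPM, and the injured libraries held 42.2 CPM (31 to 56.2) and 38.3 CPM (28 to 51.1). This class held 68 naïve cells against 219 and 269 in the injured libraries. Socs3 was at 31.5, 80.5 and 105 CPM in fibroblast-like cells, past 2-fold at both times (1.35 (0.20 to 2.64) and 1.74 (0.75 to 2.91)), and at 17.5, 26.4 and 41.2 CPM in myelinating Schwann-like cells, past 2-fold at 14 days (1.24 (0.84 to 1.65)). In SGC-like cells it was at 15.4, 15.2 and 29.6 CPM, close to 2-fold at 14 days (0.94 (0.53 to 1.36)), and in endothelial-like cells at 7.10, 16 and 11 CPM, past 2-fold at 7 days. Nfkbia, the inhibitor of NF-κB, was at 139, 49.2 and 78 CPM in non-myelinating Schwann-like cells, past 2-fold lower at 7 days (-1.50 (-2.48 to -0.62)), and at 83.4, 97 and 151 CPM in macrophage-like cells. Its highest levels were those of endothelial-like cells, at 417, 424 and 352 CPM. Among the effectors, Cyr61, a matrix protein of vessels, was at 15.8, 22.5 and 58.6 CPM in endothelial-like cells, with a log2 ratio of 1.89 (1.31 to 2.51) at 14 days, while Rhob, a small GTPase, was at 709, 461 and 439 CPM there and lower in 6 of 8 classes at both times, past 2-fold in none.

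By class, 5 immediate early genes were 2-fold higher in neuron-like cells at each time, of 25 counted, against 2.62% and 3.7% of all genes, and the medians of their log2 ratios were 0.50 and 0.53. The makeup of this class differed between libraries. Cells are given here for whole clusters, and not all of them need be in the neuron-like class. The 2 clusters with Sprr1a and Atf3 among their leading genes held 2, 113 and 1 cells and 2, 16 and 29 cells, and a cluster led by C1ql4 and Th held 34, 10 and 13. In the 2 neuron clusters with at least 20 cells in each library, the immediate early sum was at log2 ratios of 0.12 and 0.063 (led by Mrgprd) and of -0.033 and -0.18 (led by Zcchc12), against 0.27 and 0.31 in the class. Nfkbiz, a nuclear regulator of NF-κB targets, was at 1.41, 8.50 and 5.05 CPM (2.59 (1.67 to 3.63) and 1.84 (0.94 to 2.86)), and Gadd45g at 21.8, 54.9 and 53.9 CPM (1.34 (1.08 to 1.60) and 1.31 (1.07 to 1.55)). Fosl2 and Socs3 (3.06, 8.34 and 9.07 CPM) were past 2-fold at both times, Egr1 (4.11, 11.2 and 6.39 CPM) at 7 days and Gadd45b (1.65, 2.73 and 5.76 CPM) at 14 days. The intervals rest on 12 to 185 naïve UMIs. Genes that are no members but mark axon injury in neurons were measured beside them. Atf3 was at 12.2, 165 and 107 CPM, Jun at 64.1, 149 and 148 CPM and Sprr1a at 7.17, 624 and 273 CPM in neuron-like cells. Jun was higher there by 1.22 and 1.21 on the log2 scale, more than Junb (0.59 and 0.54) and Jund (0.11 and 0.28).

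In fibroblast-like cells 5 of 23 immediate early genes were 2-fold higher at 7 days and 6 at 14 days, against 4.11% and 4.03% of all genes, and 1 was lower at each time (4.37% and 1.87%). Mural-like cells had 2 and 5 of 22 higher (1.57% and 2.01%) and 2 and 3 lower (2.04% and 1.38%). Their immediate early sum was 3299, 3500.1 and 4026 CPM, with log2 ratios of 0.085 (-0.013 to 0.18) and 0.29 (0.20 to 0.37). With doublets left out these ratios were 0.28 and 0.47. The class held a cluster led by Abcc9 and Ifitm1 (58, 50 and 101 cells) with ratios of 0.33 and 0.47. Its other cluster, led by Acta2 and Myh11 (73, 55 and 79 cells), had ratios of -0.033 and 0.012, and this makeup differed between libraries. Macrophage-like cells had 1 and 4 of 21 higher, in a class where 9.08% and 10.9% of all genes passed the same limit, so the count at 7 days was no higher than the background. None of the 21 was 2-fold lower there, while 3 and 4 of 5 heat shock genes were, against 3.14% and 3.64% of all genes. In myelinating Schwann-like cells 1 and 3 of 25 were higher (0.501% and 0.646%), in non-myelinating Schwann-like cells 0 and 3 of 13 (1.91% and 1.95%, with 2 lower at 7 days, Nfkbia and Fosl2, against 3%), and in endothelial-like cells 2 and 2 of 25 (1.01% and 1.22%). Non-myelinating Schwann-like cells were the class whose members were least sure, since 14.8% of its cells fell in a cluster of another named class.

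SGC-like cells had 0 of 26 immediate early genes past 2-fold in either direction at either time, where 0.345% and 0.755% of all genes were higher and 0.354% and 0.456% lower. Their sum was 2369, 2593 and 2367 CPM, with log2 ratios of 0.13 (0.091 to 0.17) and -0.0016 (-0.039 to 0.036). With cells of at least 1000 genes and at most 10% mitochondrial transcripts, these ratios were -0.35 and 0.28, so the sign at 7 days depended on the filter. The mitochondrial share of the class was 13.2%, 14.8% and 15.1%, above that limit, so the filter kept only its cells of low share. The number of cells kept is not given here. The median log2 ratio of the immediate early genes in SGC-like cells was 0.14 and 0.01, and that of the 6 heat shock genes -0.57 and -0.60, against -0.0033 and 0.0066 over all 10735 genes counted. In endothelial-like cells the medians were 0.15 and 0.27 for immediate early and -0.82 and -1.36 for heat shock genes, and in macrophage-like cells -0.23 and -0.016 and -1.45 and -1.58, with all-gene medians of 0.075 and 0.065 in the latter.

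The same families were followed in genes outside the 37, listed by their function (38 immediate early and stress genes and 24 heat shock and chaperone genes). Like the members, these lists were chosen with earlier results of these data known, so they are no independent check. Among the chaperones, Hsph1, Dnaja1, Stip1, Ahsa1, Fkbp4, Chordc1 and Hspa4l were lower in 8 of 8 classes at both times. Hsph1, an HSP110 that releases nucleotide from HSP70, was at 102, 27.9 and 21.6 CPM in endothelial-like, 168, 53.7 and 30.2 CPM in fibroblast-like and 89, 41.3 and 19.1 CPM in macrophage-like cells. Dnaja1, a co-chaperone of HSP70, was at 585, 315 and 256 CPM in endothelial-like cells and at 278, 179 and 104 CPM in macrophage-like cells. Other genes of the list went the other way at 7 days, among them Hspa2, higher in 5 of 5 classes, Hspa4, higher in 6 of 8, and the heat shock factor gene Hsf1, higher in 6 of 7. Of the chaperones of the endoplasmic reticulum, Hspa5 was lower in 8 classes at 7 days and 7 at 14 days, and Hsp90b1 was lower in 6 at 7 days and in 2 at 14 days. The median log2 ratio of the chaperones was lower than 0 in all 8 classes at 7 days, from -0.56 in fibroblast-like to -0.051 in neuron-like cells, and in neuron-like cells it was 0.02 at 14 days. The 2-fold limit was passed downwards by 5 of 20 at 14 days in non-myelinating Schwann-like cells (2.31% of all genes) and by 4 of 23 in endothelial-like cells (0.913%). It was passed by 3 of 22 in mural-like (1.38%), 3 of 20 in fibroblast-like (1.87%) and 3 of 20 in macrophage-like cells (3.64%). SGC-like cells had 1 of 23 (0.456%), myelinating Schwann-like cells 1 of 22 (0.443%) and neuron-like cells 0 of 24 (0.695%). Upwards, it was passed at both times by Hspb6 in neuron-like cells (2.62% and 3.7%) and Cryab in macrophage-like cells (9.08% and 10.9%).

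Of the other immediate early and stress genes, 7 of 32 were 2-fold higher in neuron-like cells at 7 days and 6 at 14 days (all genes 2.62% and 3.7%), and 0 were lower. They were Atf3, Gadd45a, Dusp14, Klf6, Csrnp1 and Jun at both times, and Cebpd at 7 days. Klf6 was at 72.4, 181 and 193 CPM and Gadd45a at 46.4, 158 and 98.3 CPM, the latter also among the leading genes of the shallow 7-day cluster. Dusp8 was at 18.6, 42.7 and 58.5 CPM in myelinating Schwann-like cells, past 2-fold at both times. In SGC-like cells 0 of 32 of these genes were past 2-fold at either time, where at most 0.755% of all genes were, so a count of 0 is near the background. The median log2 ratio of this list was 0.36 and 0.28 in neuron-like cells and between -0.21 and 0.20 in the other classes at 7 days.

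**Figure D5:**
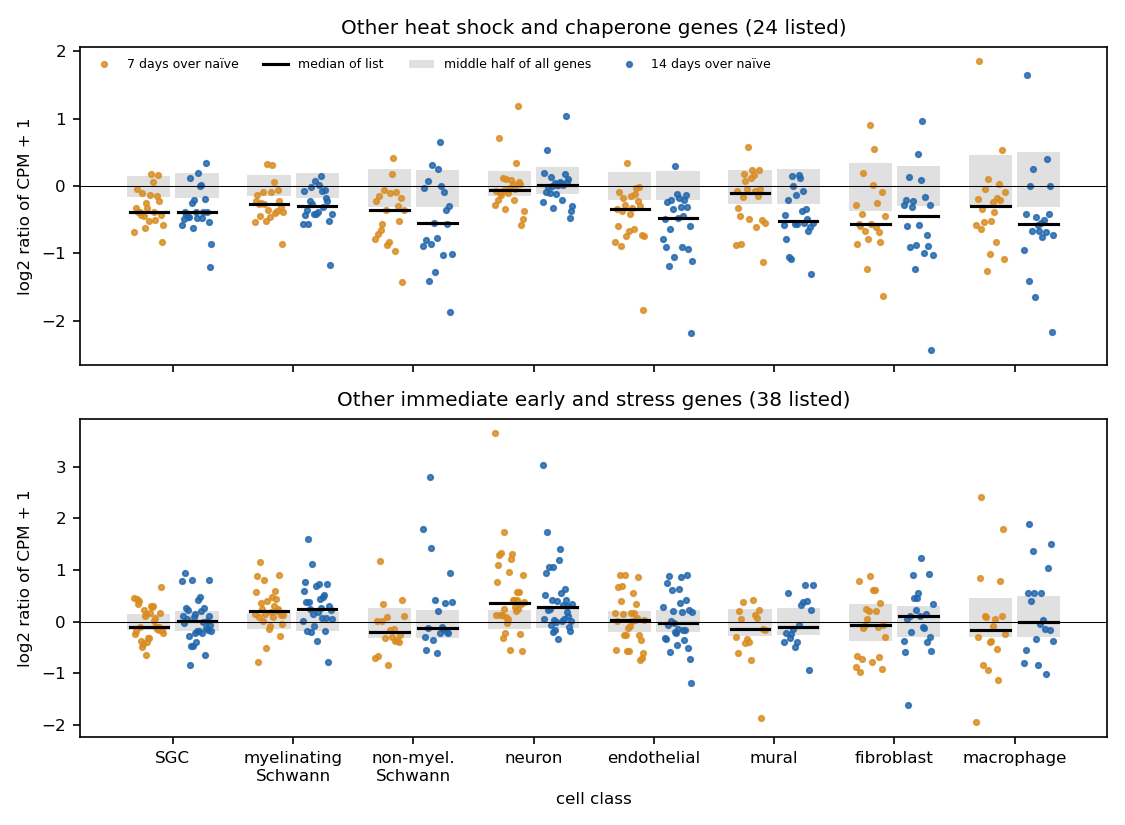
Log2 ratio of CPM + 1 (vertical axis) of the 24 listed heat shock and chaperone genes and the 38 listed immediate early and stress genes outside the 37, by cell class (horizontal axis), 1 point per gene with at least 50 UMIs, a bar for the list median and grey for the range between the quartiles of all genes. The chaperone medians lie at -0.38 and -0.39 in SGC-like cells, while the stress gene medians of neuron-like cells lie at 0.36 and 0.28.

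All 37 members were found by identifier as protein-coding genes in the GENCODE vM21 annotation, and 9 of them are overlapped by another gene (Fosl1, Junb, Jund, Dusp1, Dusp5, Zfp36, Zfp36l1, Hspa1a and Hspa8). Whether the counting used the strand is not given in the sources used here, so reads of these overlaps may be shared. The library reads the 3′ end of each mRNA, and the levels of different genes were not compared by length.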

How the data were processed

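The authors deposited, for each of the 3 libraries, a matrix of whole-number UMI counts per gene and cell without normalization, limited to barcodes called as cells. The submitters' processing notes name Cell Ranger 3.0.2 and mm10; the annotation is not given in the sources used here, and the paper describes no methods for these libraries. The counts came from 10x 3' chemistry, with polyA RNA of dissociated DRGs. Cells with at least 500 genes and at most 20% mt- UMIs were kept. Counts were scaled to 10000 per cell, log-transformed and standardised per marker (limit 10), and a cell joined the class with the highest mean marker score if it was at least 0.25, led by at least 0.25 and rested on at least 3 detected markers. These thresholds were set after the scores were seen, and 298 cells (3.08%) lay within 0.05 of a limit. Class names are rebuilt and may differ from the authors' own. Scrublet (scanpy 1.11.5, expected rate 5%) called 72 cells (0.745%) as doublets, which were kept in the main values and left out in an alternative. UMIs were summed per class and library and divided by the class total (CPM). A gene was counted in a class with at least 50 UMIs over the 3 libraries and called at 2-fold on CPM + 1. Clusters (leidenalg 0.10.2, resolution 1, 2000 variable genes less the members and the 62 other listed genes, 30 components, 15 neighbours) gave an alternative to the classes. Promoter windows came from RefSeq. Thinned sums were expected values, the mean over cells of at least 2000 UMIs, with no UMIs drawn. Alternatives were another cell filter, none, doublets left out, clusters, median-of-ratios scaling, the mean over cells, thinning to 2000 UMIs, no top member, and other pseudocounts, folds and minimums; 2 more (deep neurons, 14 over 7 days) were chosen after seeing the data. The scripts' counts were tested on simulated data. Genes described were, in each class, the 5 most changed past 2-fold in each direction, plus Fos, Junb, Egr1, Ier2, Dusp1, Zfp36, Nfkbia, Socs3, Hspa1a, Hspa1b, Hspb1 and Hspa8 whatever their change. The members and lists were chosen with earlier results of these data known. Tools were numpy 2.4.6, pandas 2.3.3 and scipy 1.17.1.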

Additional observations from a re-analysis of the deposited data

Results flagged for a closer look

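The heat shock sum differed in direction between neuron-like cells and the other classes. Its log2 ratio over the naïve library at 7 days was 0.053 in neuron-like cells and at most -0.59 in the 7 other classes, the highest being SGC-like cells. At 14 days it was 0.12 in neuron-like cells and at most -0.61 in the others, the highest being myelinating Schwann-like cells. Within clusters the pattern was not the same, since the 2 neuron clusters with at least 20 cells in each library had heat shock ratios of -0.078 and -0.39 at 7 days and of 0.25 and -0.14 at 14 days, and the makeup of the neuron-like class differed between libraries. With 1 library per condition this difference was not tested.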

How the results depend on the processing

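No paired analysis was possible because there was 1 library for each group, and no library could be left out of a group. The heat shock sum kept its sign in all 128 alternative values outside SGC-like cells, and the immediate early sum in 117 of 128; the exceptions lay in classes with ratios near 0. In SGC-like cells the stricter cell filter gave immediate early log2 ratios of -0.35 (7 days) and 0.28 (14 days) and a heat shock ratio of -0.70 at 14 days, from cells of low mitochondrial share alone. No filter gave -0.075 and -0.83 at 14 days. Heat shock ratios there were -0.64 and -0.84 both as the mean over cells and with cells thinned to 2000 UMIs, and -0.69 at 14 days without Hspa8. For sums, thinning differs from the mean over cells only in leaving out cells under 2000 UMIs. Thinning also turned the immediate early ratio at 7 days to 0.038 in endothelial-like and to 0.000128 in macrophage-like cells; outside SGC-like cells the heat shock ratio at 7 days ranged up to 0.37 in neuron-like cells. Of the immediate early combinations past 2-fold, thinning left 9 higher and 3 lower at 7 days and 13 and 1 at 14 days; a pseudocount of 10 CPM left 10 and 17 higher; without doublets 2 were lower at 14 days. At 1.5-fold 38 and 50 were higher and 18 and 15 lower, with 29 and 30 heat shock combinations lower; with no minimum of UMIs 30 and 46 were higher and 15 and 11 lower. Fosl2 in non-myelinating Schwann-like cells at 7 days was 0.053 with classes from clusters, which kept the sign of 87 of 88 called values and 82 past 2-fold; median-of-ratios scaling, which moved no class by over 0.1, kept 88 and 86. Apart from fewer UMIs under thinning and looser limits, the causes were not tested. Rare members are limited by depth, and differences between mice could not be measured.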

Other observations

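T or NK-like, neutrophil-like and B-like cells had under 50 cells in each library and were summed over the libraries, with no comparison of conditions. The 57 neutrophil-like cells had 9763 CPM (9270 to 10275) of immediate early genes and 770.4 CPM (636.6 to 924.0) of heat shock genes. Zfp36 reached 1368 CPM, Dusp1 1288 CPM, Fos 1076 CPM and Junb 876.7 CPM in these cells, while Hspa1a was at 6.64 CPM. In the 33 B-like cells the sums were 5029 CPM and 1041 CPM, with Btg1, an antiproliferative gene, at 2023 CPM and 0 UMIs of Hspa1a and Hspa1b. The 62 T or NK-like cells had 3386 CPM and 1569 CPM. Dusp2, a phosphatase of lymphocytes that no analysed class counted, was at 89.8 CPM in T or NK-like and at 161.9 CPM in B-like cells. The 883 unassigned cells had heat shock sums of 3053, 1677 and 1459 CPM (naïve, 7 days, 14 days), and their immediate early sums were 2692, 3108 and 2868 CPM. Levels of different classes come from different total RNA per cell, and the share of free RNA in these small classes was not measured.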
